A study of Mus musculus with 10 samples.

Results

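Reactive astrocyte genes were followed as 10 genes of astrogliosis, *Gfap*, *Vim*, *Serpina3n*, *Lcn2*, *Cd44*, *Timp1*, *Osmr*, *S1pr3*, *Steap4* and *Cp*, which were found by symbol among the 25232 genes of the deposited results table. All 10 were present and all 10 were among the 16522 genes that carried an adjusted p-value. The RNA came from the spinal cord of 90-day-old female mice on a C57BL/6 background, 5 SOD1G93A and 5 wild type (WT), with 1 library per mouse. SOD1G93A mice carry, in high copy number, human *SOD1* with the G93A mutation of familial ALS, and the WT mice were their littermates without it. The transgene is driven by the human *SOD1* promoter and is expressed in all tissues, so these are not mice in which astrocytes alone carry the mutation. The methods place the dissection in the lumbar cord, and the labels name the spinal cord only. The table holds 1 comparison of SOD1G93A with WT mice and no values of single libraries, so that the level of a gene in each mouse and any overlap of the groups cannot be shown, and the standard error (SE) of the fold change is the error of every value below. Fold changes are SOD1G93A over WT, a direction that follows the study's account because the table does not name it. The base mean, the mean over the 10 libraries of counts divided by size factors, summed to 22158933 over all genes. The mouse *Sod1* gene had a log2 fold change of −0.05 (SE 0.0453, adjusted p = 0.639 from the authors' DESeq2 fit), and the human transgene has no row by which the labels could be checked.

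Astrocytes answer injury, inflammation and neuron loss by a graded change of state called reactive astrogliosis. The intermediate filament network of GFAP and vimentin grows, secreted inhibitors of proteases and carriers of iron or lipophilic ligands are made, and receptors for cytokines, lysophospholipids and matrix rise at the membrane. A well-known route to this state runs from cytokines of the IL-6 family through the shared receptor chain gp130, the Janus kinases and STAT3, and *Gfap* is a known target of STAT3. None of the 10 genes belongs to astrocytes alone. Microglia, vessel cells, fibroblasts or neutrophils can make several of them, and in bulk tissue a larger number of cells cannot be told apart from more RNA per cell.

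Of the 10 genes, 7 were higher in SOD1G93A mice at an adjusted p-value under 0.05, and 0 were lower. Of the 16522 genes tested, 3.86% were called higher and 3.24% lower. The 7 were *Serpina3n*, *Timp1*, *Osmr*, *S1pr3*, *Vim*, *Cd44* and *Gfap*, with log2 fold changes from 0.44 to 1.44. *Lcn2*, *Steap4* and *Cp* did not pass the test, and their log2 fold changes of 0.04, 0.03 and 0.13 were positive. The median log2 fold change was 0.49 over the 10 genes and −0.00138 over the 16522. All 7 lay above 0.31, the median log2 fold change of the 638 genes called higher. With base means under 100 left out, 6 members were called and *Timp1* was not tested.

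**Figure D1:**
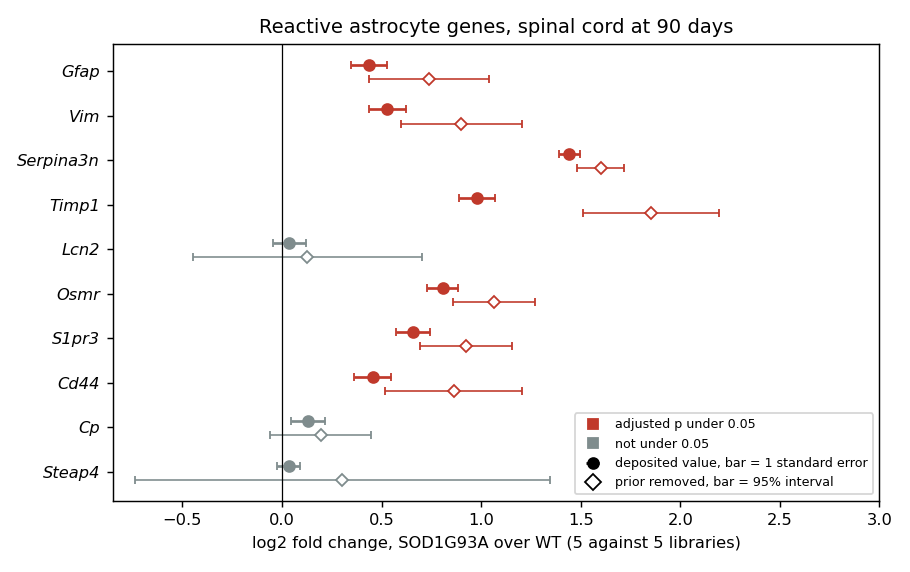
Log2 fold change (SOD1G93A over WT, 5 against 5 libraries) of the 10 genes, grouped by role. Filled circles are deposited values with bars of 1 standard error, open diamonds are values with the effect of a prior removed and bars of the 95% interval; the 7 genes in red lie from 0.44 to 1.44 as deposited, and the bars of *Lcn2*, *Steap4* and *Cp* in grey span 0 after removal.

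The starts of the genes were examined for the sequence that STAT factors bind, because *Osmr* and *Gfap* belong to the gp130 route. RefSeq windows (GRCm38.p6) of 250 bases before to 50 bases after each start were found for all 10 genes, with 11 windows in all. The STAT motif TTCNNNGAA, which reads the same on both strands, was present at *Gfap* and *Steap4*, 2 of the 10 genes, and in 6.84% of the 16286 windows of genes with an adjusted p-value. TGANTCA, also the same on both strands, is a loose form of the AP-1 motif, which has C or G in the middle. It was present at *Osmr* and in 1 of the windows of *Cp*, and in 5.40% of the windows of genes with an adjusted p-value. The matches at *Osmr* and *Cp* read TGATTCA and so were not the strict AP-1 motif. TATAAA, sought on both strands, was found at *Vim*, *Cp* and *Steap4* (7.60% of windows). The pair of TATAAA matches in *Cp*, one on each strand, overlapped, and no other matches did. The windows of *Gfap* (chr11:102897151-102897450, minus strand), *Steap4* (chr5:7960222-7960521, plus strand), *Osmr* (chr15:6874264-6874563, minus strand) and *Serpina3n* (chr12:104406458-104406757, plus strand) are shown. The first pair are a called gene and a gene not called that hold the STAT motif. *Osmr* is shown for TGANTCA, and *Serpina3n* as the called gene with the smallest adjusted p and no match. Capitals mark the matches, at −2 in *Gfap*, −116 in *Steap4* (with TATAAA on the other strand at −215) and +4 in *Osmr*, counted from the RefSeq start.
Gfap: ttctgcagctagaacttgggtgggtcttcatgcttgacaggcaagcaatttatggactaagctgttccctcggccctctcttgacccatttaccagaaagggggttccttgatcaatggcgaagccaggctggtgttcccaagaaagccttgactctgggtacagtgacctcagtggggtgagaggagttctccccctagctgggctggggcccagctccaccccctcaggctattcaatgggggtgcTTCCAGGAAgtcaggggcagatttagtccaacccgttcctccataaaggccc
Steap4: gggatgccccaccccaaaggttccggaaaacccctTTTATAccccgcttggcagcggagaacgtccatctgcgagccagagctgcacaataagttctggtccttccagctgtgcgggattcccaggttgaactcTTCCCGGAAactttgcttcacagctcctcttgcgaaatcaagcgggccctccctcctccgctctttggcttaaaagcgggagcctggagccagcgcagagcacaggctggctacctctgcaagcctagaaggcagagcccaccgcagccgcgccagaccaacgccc
Osmr: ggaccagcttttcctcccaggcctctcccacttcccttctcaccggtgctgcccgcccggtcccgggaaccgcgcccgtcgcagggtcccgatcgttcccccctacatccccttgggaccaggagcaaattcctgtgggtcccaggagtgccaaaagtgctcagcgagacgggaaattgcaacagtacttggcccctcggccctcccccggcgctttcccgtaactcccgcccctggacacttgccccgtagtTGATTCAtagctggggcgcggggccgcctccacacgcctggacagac
Serpina3n: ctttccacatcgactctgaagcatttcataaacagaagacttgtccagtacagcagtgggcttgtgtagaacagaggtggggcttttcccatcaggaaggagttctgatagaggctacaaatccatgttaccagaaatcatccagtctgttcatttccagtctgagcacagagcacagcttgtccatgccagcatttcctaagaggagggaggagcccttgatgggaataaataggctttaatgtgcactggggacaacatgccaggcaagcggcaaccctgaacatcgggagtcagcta

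The STAT motif was thus in the window of 1 of the 7 called genes and of 1 of the 3 genes not called. The gene not called, *Steap4*, had a base mean of 13.1, at which only a large change would have been called. The motif can therefore not be compared with the calls. A match is a description of the letters and not of binding, and more distant regulatory regions were not searched.

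The deposited fold changes look moderated, that is, drawn towards 0. No standard error in the table exceeded 0.0924, also at base means where counting noise alone would give more. For *Timp1*, *Lcn2* and *Steap4* the deposited SE was 0.722, 0.486 and 0.227 times the smallest that counting 5 against 5 libraries allows. A normal prior on the fold changes would set such a ceiling, and with a prior SD of 0.185, taken from the ceiling, the fold changes can be computed without it. An SE under the ceiling has 2 solutions, and the one with more information is given first where counting noise allows it. The Wald statistic (fold change over SE), the p-values and the calls stay as they are. With the effect of the prior removed the median of the 10 genes was 0.88. The prior was inferred from the table and is not named in the methods.

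*Serpina3n*, which encodes a secreted inhibitor of serine proteases made by reactive astrocytes, had the largest Wald statistic of all 16522 genes, 26.3. Its log2 fold change was 1.44 (SE 0.0549), a 2.72-fold higher level in SOD1G93A mice, with an adjusted p of 5.75e-148 (the authors' DESeq2 fit). By deposited fold change it was number 2 of all genes. That order depends on the prior, since without it *Timp1* had a larger value, 1.85, than *Serpina3n*, 1.60, with overlapping 95% intervals. Removal of the prior gave 1.60 with a 95% interval from 1.48 to 1.72, and the solution with less information gave 14.7 (13.6 to 15.8). A value of 14.7 would leave almost no counts in WT mice. The check against counting noise used the pooled base mean and did not take this into account. A base mean of 2583 with the deposited fold change puts the WT mean near 1389 and the SOD1G93A mean near 3777 normalised counts. Its position in GRCm38 is chromosome 12, 104406729 to 104414329, plus strand, in a cluster of near copies. Of the 11 *Serpina3* genes of the list, the other two with an adjusted p-value were *Serpina3c* and *Serpina3g*, with base means of 17.5 and 48.6 and log2 fold changes of −0.06 and −0.02 (adjusted p = 0.788 and 0.958 in the same DESeq2 fit). The rest had too few counts for an adjusted p-value, no p-value or no count at all. Reads that match several copies are not in these values, since multiply mapped reads were left out of the counting.

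*Timp1*, the tissue inhibitor of metalloproteinases 1, was number 30 of all genes by Wald statistic, next to *Serpina3n* among the members. Its base mean of 51.1 was low and its log2 fold change was 0.98 (SE 0.0922, adjusted p = 1.27e-23 from the authors' DESeq2 fit). Without the prior the log2 fold change was 1.85 (95% interval 1.51 to 2.20), or 2.08 (1.69 to 2.46) in a solution with less information. The implied group means were 34.4 and 67.8 normalised counts for WT and SOD1G93A mice with the deposited fold change and 22.1 and 80.0 without the prior. *Timp1* was the only called gene of the 4 TIMPs, whose median was 0.08. *Timp1* lies on the X chromosome from 20870166 to 20874735, inside *Syn1*, the synapsin I gene, which runs on the other strand. Their exons share 0 bases in GENCODE M21, and *Syn1* had a log2 fold change of −0.06 (SE 0.0407).

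*Lcn2*, the gene of lipocalin 2, a secreted carrier of iron-binding siderophores, was not called. Its base mean was 28.3 and its log2 fold change 0.04 (SE 0.0833, adjusted p = 0.890 from the authors' DESeq2 fit). Without the prior the 95% interval ran from −0.45 to 0.70. The gene is on the minus strand of chromosome 2, 32384633 to 32388252. A prior-removed log2 fold change of about 0.85 would have been needed for a call. *Slc22a17*, a proposed lipocalin 2 receptor, had a log2 fold change of −0.06 (SE 0.0437, adjusted p = 0.557). Of the 2 receptor genes, 0 were called in that fit, and 0 had an unadjusted p under 0.05.

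The filament genes rose by less than *Serpina3n*, and with a wide error. *Gfap*, the defining intermediate filament of astrocytes, had the highest level of the 10 genes per kilobase of exon, 13345, at a base mean of 56289. Its log2 fold change was 0.44 (SE 0.0908, adjusted p = 8.31e-05 from the authors' DESeq2 fit), 1.35-fold. *Vim*, which encodes vimentin, had a log2 fold change of 0.53 (SE 0.0909, adjusted p = 5.27e-07), 1.44-fold. Without the prior the values were 0.74 (95% interval 0.44 to 1.04) for *Gfap* and 0.90 (0.60 to 1.20) for *Vim*, and the 2 intervals overlapped. Of the 5 glial filament genes only these 2 passed the test. *Gfap* runs from 102887336 to 102900912 on the minus strand of chromosome 11 and *Vim* from 13573927 to 13582826 on the plus strand of chromosome 2. Nestin (*Nes*) and synemin (*Synm*), looked up after the values were seen, had log2 fold changes of 0.20 (SE 0.0915) and −0.11 (SE 0.0565).

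The error of *Gfap* and *Vim* was not set by counting. The SE of *Gfap* was 23.6 times the smallest that counting allows and above that of 96.3% of the 27 genes within 1.5-fold of its base mean. For *Vim* the SE was above that of 99.6% of 2077 such genes, for *Cd44* above 99.7% of 3121 and for *Cp* above 97.6% of 3169. *Serpina3n*, with a base mean close to that of *Vim*, stood at 86.6%. Thus 4 of the 10 genes were above the 90th percentile of deposited SE for their abundance. Under a prior the deposited SE falls again for the noisiest genes, so a low rank need not mean a small error. *Steap4* stood at 4.29%, but its SE with the prior removed, 0.531, was the largest of the 10 genes. Which mice carry the spread of *Gfap* and *Vim* cannot be seen without values of single libraries. The solution with less information was 1.07 (SE 0.222) for *Gfap* and 1.28 (SE 0.221) for *Vim*.

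**Figure D2:**
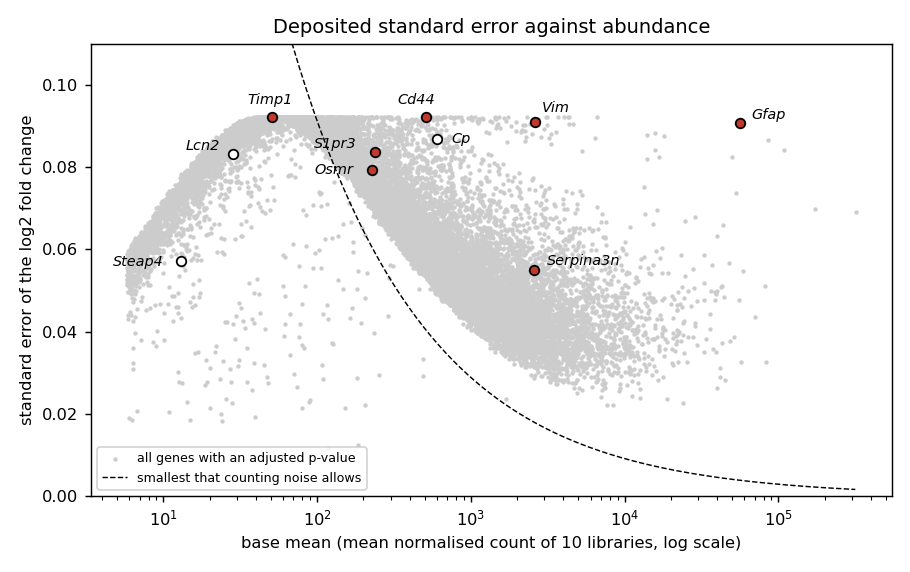
Deposited standard error of the log2 fold change against base mean (log scale) for all 16522 genes with an adjusted p-value, with the 10 genes marked (red, called; white, not called) and the smallest value that counting noise allows as a dashed line. Values stop at 0.0924, *Gfap*, *Vim*, *Cd44* and *Cp* stand above most genes of their abundance, and *Timp1*, *Lcn2* and *Steap4* lie under the dashed line.

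All 3 receptors of the cell surface were called. *Osmr*, the signalling chain for oncostatin M that pairs with gp130, had a log2 fold change of 0.81 (SE 0.0794, adjusted p = 1.35e-21 from the authors' DESeq2 fit) at a base mean of 227, and was number 36 by Wald statistic. *S1pr3*, a receptor for sphingosine-1-phosphate, had one of 0.66 (SE 0.0838, adjusted p = 1.11e-12) at a base mean of 238 and was number 61. *Cd44*, the hyaluronan receptor, had one of 0.45 (SE 0.0922, adjusted p = 4.73e-05) at a base mean of 511 and was number 211. Without the prior the 3 values were 1.07 (95% interval 0.86 to 1.27), 0.93 (0.69 to 1.16) and 0.86 (0.52 to 1.20). The solution with less information gave 3.30 (2.66 to 3.94) for *Osmr*, 2.26 (1.70 to 2.83) for *S1pr3* and 0.96 (0.58 to 1.35) for *Cd44*. The 3 intervals overlapped in the first solution, and in the other that of *Cd44* lay below those of *Osmr* and *S1pr3*. *Osmr* is on chromosome 15 (6813577 to 6874969, minus strand), *S1pr3* on chromosome 13 (51408639 to 51422797, plus strand) and *Cd44* on chromosome 2 (102811141 to 102901665, minus strand). Exons of *S1pr3* share 45 bases (1.01%) with a long noncoding RNA on the other strand.

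The 2 genes of iron and copper handling were not called. *Cp* encodes ceruloplasmin, the copper ferroxidase that astrocytes carry at their surface, and had a log2 fold change of 0.13 (SE 0.0868, adjusted p = 0.462 from the authors' DESeq2 fit) at a base mean of 600.4. Its 95% interval without the prior, −0.06 to 0.45, left room for a change up to 1.36-fold. The solution with less information gave 0.40 with an interval from −0.12 to 0.92. *Steap4*, a metalloreductase, had the lowest level per kilobase, 4.15, at a base mean of 13.1. Its log2 fold change was 0.03 (SE 0.0573, adjusted p = 0.847), and without the prior the 95% interval ran from −0.74 to 1.34. Only a prior-removed log2 fold change of about 1.55 would have been called at this gene, against 0.38 for *Cp*. *Cp* (chromosome 3, 19957054 to 20009145, plus strand) shares 108 exon bases (1.13%) with *Hps3* on the other strand, which had a log2 fold change of −0.04 (SE 0.0545). *Steap4* lies on the plus strand of chromosome 5, 7960457 to 7982213.

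**Figure D3:**
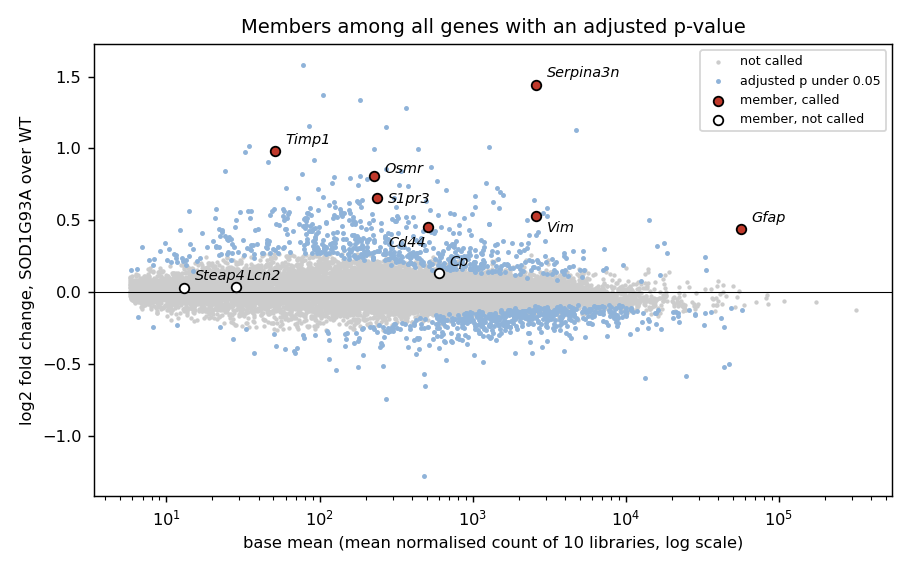
Log2 fold change (SOD1G93A over WT) against base mean (log scale) for the 16522 genes with an adjusted p-value, called genes in blue, and the 10 members in red (called) or white (not called). *Gfap* is the member with the highest base mean, 56289, and *Steap4* and *Lcn2*, at 13.1 and 28.3, sit at the left near 0.

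Levels between genes were compared per kilobase of exon, with the exons of all annotated transcripts of a gene joined. The transcripts present in this tissue may be shorter, which would make a level read too low. The order of the base mean per kilobase was *Gfap* (13345), *Serpina3n* (1251), *Vim* (549), *Cd44* (75.3), *Cp* (62.8), *Timp1* (57.5), *S1pr3* (53.4), *Osmr* (18.7), *Lcn2* (10.8) and *Steap4* (4.15). No spread over libraries is given for these levels, and the 4 genes from *Cd44* to *S1pr3* stood within a narrow range. The 3 genes that were not called included the 2 with the lowest levels per kilobase, but *Cp* was more abundant per kilobase than *Timp1*, *S1pr3* and *Osmr*, which were called.

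Other genes of the pan-reactive state moved in the same direction. *Hspb1*, a small heat shock protein, *Aspg*, an asparaginase, and *Cxcl10*, a chemokine, were all called higher, 3 of 3. Their log2 fold changes were 0.45 (SE 0.0779), 0.57 (SE 0.0889) and 0.28 (SE 0.0844). At a threshold of 0.01, and with the Holm adjustment, 2 were called and *Cxcl10* was not. With base means under 100 left out *Cxcl10*, at a base mean of 25.1, was not tested. Astrocyte genes first described after lipopolysaccharide (A1) and after ischaemia (A2) were read as separate lists. Of 12 A1 genes with an adjusted p-value, 3 were higher, *Ggta1*, *C3* and *Gbp2*, with log2 fold changes of 0.64 (SE 0.0851), 0.36 (SE 0.0894) and 0.26 (SE 0.0886), and 9 were not called. *H2-T23*, a major histocompatibility gene of the same list, had a value of 0.06 (SE 0.0783). Of 12 A2 genes, 9 were higher and 3 were not called, with *Cd109*, *Ptx3*, *Cd14* and *Tgm1* at 0.75 (SE 0.0859), 0.56 (SE 0.0850), 0.54 (SE 0.0909) and 0.41 (SE 0.0740). The medians were 0.12 and 0.33, and 0 genes were lower in either list. With the Holm adjustment 1 A1 gene and 6 A2 genes passed. With base means under 100 left out, 3 A1 genes and 5 A2 genes were called, and *Cd14*, *Ptx3*, *Tgm1* and *Clcf1* were not tested. *Stat3* and *Clcf1* stand in this list and in those of the gp130 route. The difference between the lists was not tested. *Cd14* and *C3* are also genes of microglia.

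Along the gp130 route, 3 of 6 receptor genes and 2 of 11 transducers were higher, 1 transducer was lower, and 1 cytokine gene was higher. *Il6st*, which encodes gp130, and *Il6ra* were called higher along with *Osmr*, with log2 fold changes of 0.24 (SE 0.0547) and 0.28 (SE 0.0866). Among 11 transducers, *Stat3* (0.22, SE 0.0440) and its target and inhibitor *Socs3* (0.44, SE 0.0889) were higher and the kinase gene *Jak1* was lower (−0.18, SE 0.0384), with adjusted p-values of 5.54e-05, 3.73e-05 and 0.000135 from the authors' DESeq2 fit. Of the 8 cytokine genes, 5 had an adjusted p-value and *Clcf1*, which encodes a partner ligand of the ciliary neurotrophic factor receptor, was the gene called (0.35, SE 0.0923, adjusted p = 0.00467). *Il6* had a base mean of 1.72 and no adjusted p-value, as had *Osm* and *Cntf*. With the Holm adjustment *Osmr* was the receptor gene that remained and 0 cytokine genes did.

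The partners of the other members were read list by list. In the sphingosine-1-phosphate list, *S1pr3* and the lyase gene *Sgpl1* (0.35, SE 0.0414) were higher, 2 of 9, and *S1pr1*, another receptor of the family, had a value of 0.11 (SE 0.0475, adjusted p = 0.189 from the authors' DESeq2 fit). None of the 9 hyaluronan and CD44 ligand genes was called at an adjusted p under 0.05, nor at an unadjusted p under 0.05 (0 genes), and *Has1*, a hyaluronan synthase, had a value of −0.11 (SE 0.0899). Around *Cp* and *Steap4*, the ferritin light chain gene *Ftl1* (0.29, SE 0.0455) and *Steap3* (0.34, SE 0.0868) were higher and the transferrin receptor gene *Tfrc* (−0.27, SE 0.0674) was lower, of 8 genes with an adjusted p-value. *Steap1* had a base mean of 3.66 and no adjusted p-value, and *Tf* was not analysed here.

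Markers of the cells present were read beside these results. All 12 markers of homeostatic astrocytes were well detected, with base means from 728 to 70535, and 3 of the 12 were higher, *Aqp4* (water channel; 0.32, SE 0.0596), *Slc1a3* (glutamate transporter; 0.25, SE 0.0723) and *Gja1* (an astrocyte connexin; 0.17, SE 0.0485). The other 9 were not called, with *Aldh1l1* at 0.06 (SE 0.0423), 0 were lower, and the median was −0.00735 with a mean of 0.0344. *Aqp4* alone remained with the Holm adjustment. The median of the 10 reactive genes, 0.49, thus stood beside a median near 0 for general astrocyte markers.

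Microglia markers went in the same direction as the reactive genes. Of 10, 9 were higher, with a median log2 fold change of 0.54 and a range from 0.15 to 1.15. *Cd68*, *Tyrobp*, *Csf1r* and *Aif1* were at 1.15 (SE 0.0776), 1.00 (SE 0.0715), 0.53 (SE 0.0494) and 0.48 (SE 0.0878). No microglia marker had a base mean of 0, and their base means summed to 10365. The sums were 63143 for the 10 reactive genes, most of it *Gfap*, and 247281 for the 12 homeostatic astrocyte markers. These sums are not scaled by exon length and do not measure the share of a cell type. Levels in each group are not given by the table. The part of microglia in the values of *Vim*, *Cd44*, *Timp1* and *Osmr* was not tested.

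For the other cells, 0 of 10 endothelial, 0 of 8 pericyte and mural, 0 of 8 fibroblast and meningeal, 0 of 6 neutrophil, 0 of 10 oligodendrocyte and 0 of 6 ependymal markers passed the 0.05 limit of the authors' DESeq2 fit after adjustment. At an unadjusted p under 0.05 there were 2, 2, 0, 0, 3 and 1. The medians of these 6 lists were 0.04, 0.09, 0.09, −0.00431, −0.07 and −0.00407. Their first genes *Cldn5*, *Pdgfrb*, *Col1a1*, *S100a8*, *Mbp* and *Foxj1* had log2 fold changes of −0.15, 0.18, 0.09, −0.04, −0.13 and −0.16. The neutrophil genes, whose cells store lipocalin 2, had base means of at most 61.4. Neuron markers went the other way, with 5 of 10 lower and 1 (*Syt1*) higher, and *Nefl*, *Nefh*, *Chat*, *Tubb3* and *Rbfox3* were at −0.50 (SE 0.0566), −0.58 (SE 0.0668), −0.35 (SE 0.0846), −0.20 (SE 0.0576) and −0.15 (SE 0.0437).

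**Figure D4:**
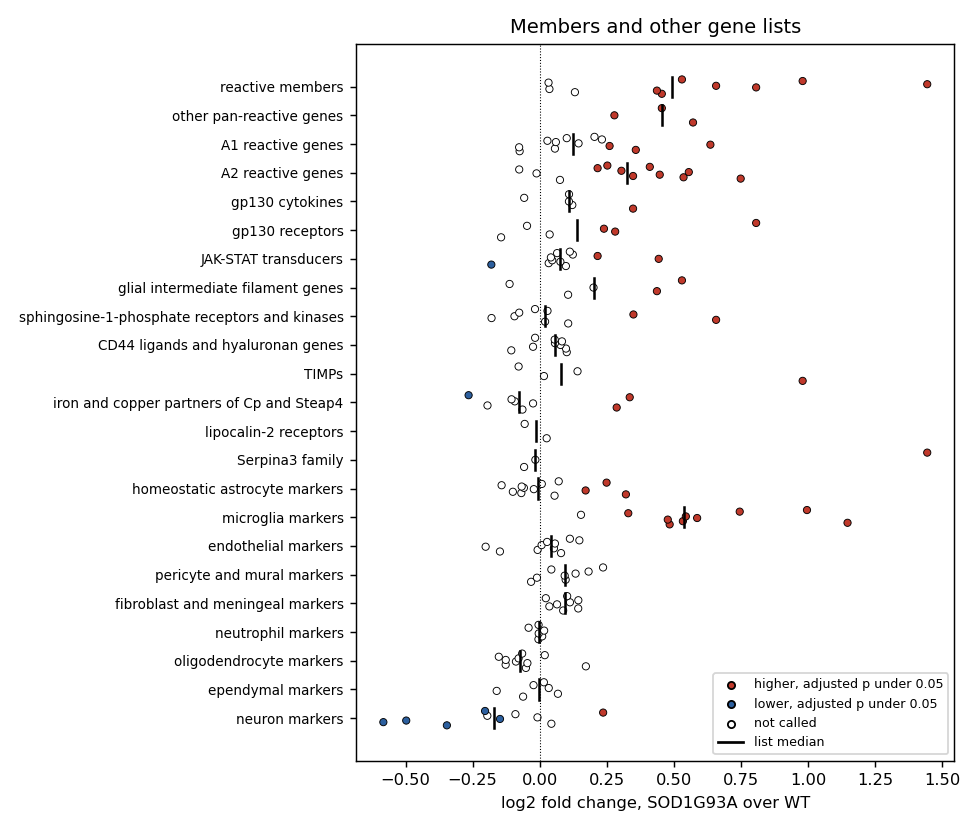
Log2 fold change (SOD1G93A over WT) of every gene with an adjusted p-value in the reactive list and the 22 other lists, 1 point per gene, red for genes called higher, blue for genes called lower, white for genes not called, with the list median as a bar. The reactive and microglia lists have medians of 0.49 and 0.54, and the homeostatic astrocyte list one of −0.00735; some genes stand in more than 1 list.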

How the data were processed

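RNA from the spinal cord of 5 SOD1G93A and 5 WT female mice was sequenced from stranded mRNA libraries. According to the methods and the submitters' processing notes, the authors aligned reads to mm10 with HISAT2 2.1.0, counted uniquely mapped reads per gene with featureCounts 2.0.2 and compared the groups with DESeq2. The strand setting of the counting is not given in the sources used here. The deposited table holds, from the authors' DESeq2 run, the base mean (a signal in normalised counts), the log2 fold change and its SE, the Wald statistic (a score), the p-value and the adjusted p-value. These columns are the authors' own comparison and are printed as such, since values of single libraries were not used here, and depth per sample is unknown. The sign of the fold change (SOD1G93A over WT) is not in the header and follows the methods and the study's account of the comparison.

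Benjamini-Hochberg adjusted p-values were recomputed over the 16522 genes with a deposited adjusted p-value (largest difference from the deposited ones, 1.93e-06) and genes under 0.05 were called. Group means were derived from base mean and fold change. The effect of a normal prior was removed with a prior SD of 0.185, 2 times the largest SE, taking the solution with more information where counting noise allows it. Scripts (Python 3.11.15, pandas 2.3.3, SciPy 1.17.1) were tested on simulated data. Positions and exon lengths came from GENCODE M21 (GRCm38) and promoters from RefSeq (GRCm38.p6).

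The members and lists were chosen with earlier results of these data known, and list counts are descriptions. All 10 members are named. From every other list, all called genes are named, or the 4 with the smallest p-values where more than 4 were called, and its first gene. A gene that this rule names is not reported here. Other thresholds, adjustments, abundance limits and summaries were tried as alternatives. Nothing says more of the replicates than that they are 5 mice per genotype.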

Additional observations from a re-analysis of the deposited data

How the results depend on the processing

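Of the 10 members, 7 were called at thresholds of 0.01 and 0.1, under Holm, with every available p-value adjusted together and with base means under 10 left out, and 6 with base means under 100 left out, where *Timp1* was not tested. The median of the members was 0.88 with the effect of a prior removed and 0.49 as deposited. At a threshold of 0.01, 279 of all genes were lower and 1 homeostatic astrocyte marker was called. At 0.1, 1 pericyte, 1 oligodendrocyte and 1 ependymal marker were called. With the Holm adjustment 243 of all genes were higher and 88 lower, and 1 A1 gene, 0 gp130 cytokine genes, 1 gp130 receptor gene, 1 iron and copper gene, 1 homeostatic astrocyte marker and 2 neuron markers were called. With base means under 100 left out, 5 A2 genes, 0 gp130 cytokine genes, 0 TIMP genes and 1 pericyte marker were called, with fewer genes tested. The mean turned the sign of the median in 2 lists, the *Serpina3* family (0.46 against −0.02, with *Serpina3n* among 3 genes) and the homeostatic astrocyte markers (0.0344 against −0.00735). The solution with less information, which gave larger fold changes for 8 members, was added after seeing the data. Counting noise was checked at the pooled base mean, so the *Serpina3n* value was not checked at the WT level that it implies. No paired analysis was possible because the table gives no values of single libraries, and for the same reason no replicate could be left out. At *Steap4* and *Lcn2* only changes of 2.93-fold and 1.81-fold or more, with the effect of a prior removed, would have been called. The part of depth in this was not tested.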
